A study of Rattus norvegicus with 6 samples.

Results

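The genes described here are 5 widely used markers of dividing cells, Mki67, Top2a, Cdk1, Pcna and Ccnd1, measured in rat colon at the site where cut bowel ends had been rejoined. They were taken by Ensembl identifier from the 21417 genes of the deposited table for their known function, with earlier results of these data already known. All 5 were listed and passed the filter on low values (1 FPKM or more on average) that kept 13591 genes. FPKM counts sequenced fragments relative to gene length and to the size of the library. It does not correct for the share of a library taken by its most abundant genes, which limits comparison between libraries. The names came with the list of identifiers. The deposited table holds no symbols and the RefSeq gene table has 0 Ensembl identifiers, so the pairing of names with identifiers was not checked.

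RNA had been extracted from whole tissue of the join 2 weeks after surgery in male rats of the outbred Sprague-Dawley stock. The ends had been united by magnetic compression anastomosis (MCA), where a pair of magnets squeezes the walls together until they fuse, in 3 libraries, and sewn by conventional suture in 3 control libraries. The labels describe biological replicates and give no age, no batch and no uninjured colon. The question was how expression in the healing tissue differed between the methods of joining. All tissue layers are mixed in such RNA, so a larger number of dividing cells and more transcript per dividing cell cannot be told apart, and the tissue was not checked against cell type markers because no other gene could be named.

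All 5 proliferation genes had a higher mean with MCA than with suture, by 1.36-fold to 1.59-fold in mean FPKM, but none passed the test. Of all genes tested, 49.2% had the higher mean FPKM with MCA and 46.6% a log2 fold above 0. After adjustment over the 13591 genes, 0 of the 5 were past 0.05 (limma with Benjamini-Hochberg adjustment), as were 0% of all genes. Pcna alone had its 3 MCA libraries above its 3 suture libraries, as 6.18% of all genes did. Without MCA replicate 2, the lowest MCA library for each of the 5, the groups did not overlap for Top2a, Cdk1, Pcna and Ccnd1. With MCA higher, this held for 4 of the 5 and for 18.0% of all genes. Leaving out a gene's lowest MCA library can only favour such a separation, so the 4 do not count as support for higher levels. The 18.0% also covers genes whose lowest MCA library was another, and is not a like background. Without MCA replicate 1 or MCA replicate 3 the groups were separate for Pcna alone, and for 8.15% and 9.51% of all genes. MCA replicate 3 was the highest of all libraries for each of the 5 genes (19.4% of all genes), and within MCA each ran from replicate 3 through 1 to 2 (24% of all genes).

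Cells entering division are driven by cyclins and their kinases. Ccnd1 encodes cyclin D1, which acts with Cdk4 and Cdk6 in G1 and links growth signals to cell cycle entry. Pcna encodes the ring-shaped clamp that holds DNA polymerases on the template in S phase and also serves in DNA repair. Cdk1 encodes the kinase that drives entry into mitosis. Top2a encodes the topoisomerase that untangles sister chromatids, and Mki67 encodes the Ki-67 protein that coats mitotic chromosomes. In normal colon, dividing cells lie mainly in the lower part of the crypts. During healing of a bowel join, fibroblasts, endothelial cells and leukocytes can divide as well.

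Promoters of genes expressed in G2 and mitosis often carry CCAAT boxes and a cell cycle genes homology region (CHR), and those of S phase genes often carry E2F sites. The 250 bases before the RefSeq start (build GRCr8) are printed as description only. Whether such matches bear on the levels of these genes was not tested. The table of RefSeq promoters used here matched 4 of the 5 genes by symbol, Mki67, Top2a, Cdk1 and Pcna, and Ccnd1 is not shown. Capitals mark every match, on either strand, to CCAAT, to TTTGAA or TTCGAA for the CHR, and to TTTCCCGC, TTTCGCGC, TTTGCCGC or TTTGGCGC for E2F. Each is written 5′ to 3′ in the direction of its gene. They lie at chr1:199952594-199952843 on the minus strand (Mki67), chr10:84473094-84473343 on the minus strand (Top2a), chr20:19265043-19265292 on the plus strand (Cdk1) and chr3:139955821-139956070 on the minus strand (Pcna).
Mki67: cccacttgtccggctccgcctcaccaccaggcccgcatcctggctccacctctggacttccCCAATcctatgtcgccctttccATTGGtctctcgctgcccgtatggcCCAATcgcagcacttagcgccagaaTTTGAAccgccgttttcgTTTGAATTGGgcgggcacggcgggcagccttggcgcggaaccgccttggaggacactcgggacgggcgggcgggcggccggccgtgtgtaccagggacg
Top2a: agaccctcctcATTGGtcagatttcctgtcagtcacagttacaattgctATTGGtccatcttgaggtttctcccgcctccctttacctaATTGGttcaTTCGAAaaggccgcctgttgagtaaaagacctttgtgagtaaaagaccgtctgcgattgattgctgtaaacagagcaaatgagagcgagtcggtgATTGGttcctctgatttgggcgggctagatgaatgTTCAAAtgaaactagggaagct
Cdk1: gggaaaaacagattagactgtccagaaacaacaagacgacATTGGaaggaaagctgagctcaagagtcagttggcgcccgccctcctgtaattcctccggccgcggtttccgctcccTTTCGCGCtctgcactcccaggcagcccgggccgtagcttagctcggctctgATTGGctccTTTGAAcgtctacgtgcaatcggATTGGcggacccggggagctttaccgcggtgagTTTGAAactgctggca
Pcna: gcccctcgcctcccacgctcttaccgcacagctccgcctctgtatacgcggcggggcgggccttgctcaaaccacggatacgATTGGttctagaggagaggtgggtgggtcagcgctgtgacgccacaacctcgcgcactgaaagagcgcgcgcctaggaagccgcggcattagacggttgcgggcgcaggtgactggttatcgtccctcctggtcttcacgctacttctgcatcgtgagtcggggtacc
The promoters of the 3 genes of G2 and mitosis held several matches each. CCAAT occurred 4 times in that of Mki67, 4 times in that of Top2a and 3 times in that of Cdk1, and each of these also held 2 CHR matches. The CHR match 99 to 94 bases before the Mki67 start shares its last base with a CCAAT match on the other strand, and no other matches to different motifs overlapped in the 4 promoters. Cdk1 had the only E2F match, 133 to 126 bases before its start. The Pcna promoter held 1 CCAAT match and none of the other letters. Among the 33469 RefSeq promoter windows of the same length, 34.0% held at least 1 CCAAT and 2.52% at least 3, 17.4% held at least 1 CHR match and 2.30% at least 2, and 1.73% held an E2F match. A match is a run of letters and not evidence of a bound factor.

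The libraries were of similar depth. Fragment totals recovered from the full-precision FPKM values ran from 14867454 to 15791079, and fragments of all 5 genes came out whole within 1e-05 of a fragment. The 7 genes highest on average held 18.7% of all FPKM in suture replicate 1 and 37.3% in suture replicate 2. Within MCA they held from 19.8% in replicate 1 to 33.6% in replicate 3. MCA replicate 2 stood apart: 2129 of the 13591 genes were, in FPKM + 1, more than 2-fold above both other libraries of MCA or below both. The same count for the other 5 libraries, each set against its own group, was 140 to 959. The mean Spearman correlation of MCA replicate 2 with the other libraries, across genes, was 0.850, against 0.880 to 0.926 for the rest. Folds, p-values, spread, overlap and ratios that rest on it are therefore also given without it.

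**Figure D1:**
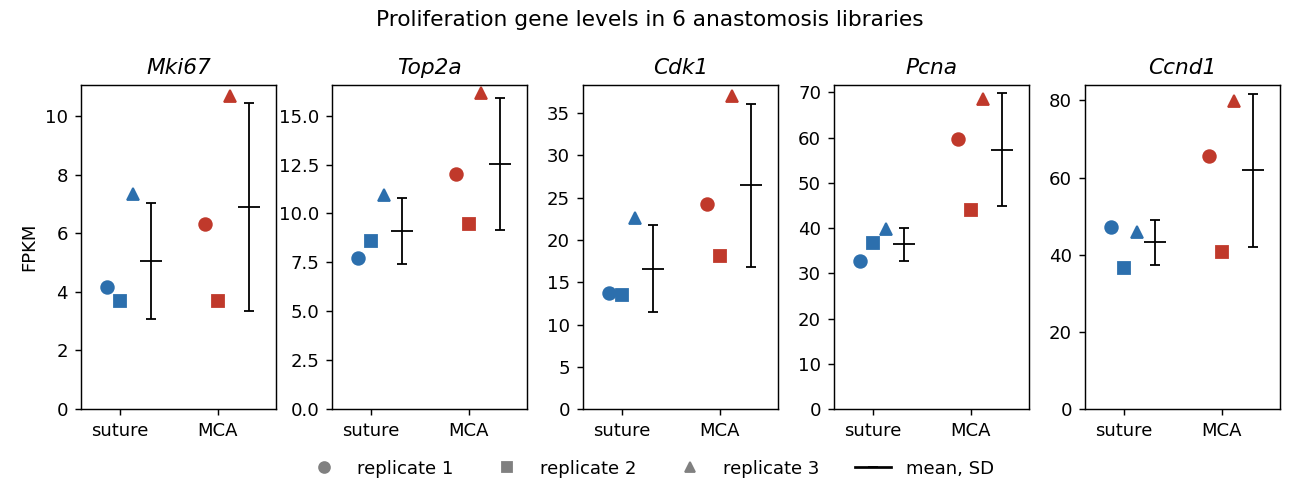
FPKM of each gene in each library (points, shaped by replicate number; the number is not taken to pair libraries across groups), with the mean and SD of each group beside them (n = 3). Only Pcna has all MCA points above all suture points, and MCA replicate 3 is the highest point in every panel.

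Mki67 (ENSRNOG00000028137), the marker most used for counting dividing cells in tissue sections, had the lowest level of the 5. It stood at 6.33, 3.68 and 10.7 FPKM in MCA replicates 1, 2 and 3, and at 4.18, 3.68 and 7.33 FPKM in suture replicates 1, 2 and 3. The groups overlapped: MCA replicate 2 lay beside the lowest suture library, and suture replicate 3 exceeded MCA replicate 1. The MCA mean was 6.90 ± 3.53 FPKM (SD, n = 3) and the suture mean 5.06 ± 1.98 FPKM (SD, n = 3), a ratio of 1.36. Its log2 fold on the log2(FPKM + 1) scale was 0.33 (SE, standard error of the fit, 0.39, limma, unadjusted p = 0.426, adjusted p = 0.9997). The direction depended on 1 library, since the log2 fold was -0.0018 without MCA replicate 3, and it was 0.66 without MCA replicate 2.

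Top2a (ENSRNOG00000053047), which like Mki67 is made mainly from S phase to mitosis, varied less. Its level was 12.0, 9.46 and 16.1 FPKM in MCA replicates 1, 2 and 3, and 7.74, 8.60 and 11.0 FPKM in suture replicates 1, 2 and 3. Each group thus had a library inside the range of the other, with MCA replicate 2 below suture replicate 3. The MCA mean was 12.5 ± 3.37 FPKM (SD, n = 3) and the suture mean 9.10 ± 1.67 FPKM (SD, n = 3), a ratio of 1.38. The log2 fold was 0.41 (SE 0.26, limma, unadjusted p = 0.160, adjusted p = 0.9997). It ranged from 0.22 without MCA replicate 3 to 0.58 without MCA replicate 2 (limma, unadjusted p = 0.0622 for the latter, adjusted p = 0.652).

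Cdk1 (ENSRNOG00000000632) had the largest ratio of means of the 5, at 1.59. The mitotic kinase stood at 24.2, 18.1 and 37.1 FPKM in MCA replicates 1, 2 and 3, and at 13.8, 13.5 and 22.6 FPKM in suture replicates 1, 2 and 3. The order of the libraries was nearly that of Top2a: the same 4 libraries led, in the same order, and suture replicates 1 and 2 came last. The MCA mean was 26.5 ± 9.69 FPKM (SD, n = 3) and the suture mean 16.6 ± 5.17 FPKM (SD, n = 3). Its log2 fold was 0.62 (SE 0.34, limma, unadjusted p = 0.108, adjusted p = 0.9997). Only MCA replicate 2 against suture replicate 3 kept the groups from separating, and without MCA replicate 2 the log2 fold was 0.85 (unadjusted p = 0.0336, adjusted p = 0.619), whereas it was 0.35 without MCA replicate 3.

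Pcna (ENSRNOG00000021264), the replication clamp, was the gene whose groups did not overlap; in the other direction, with MCA lower, this held for 0 of the 5 and for 2.52% of all genes. It was measured at 59.6, 44.0 and 68.5 FPKM in MCA replicates 1, 2 and 3, and at 32.7, 36.7 and 39.8 FPKM in suture replicates 1, 2 and 3. The gap between the groups, from suture replicate 3 to MCA replicate 2, was narrow beside the spread within MCA. MCA libraries averaged 57.4 ± 12.4 FPKM (SD, n = 3) and suture libraries 36.4 ± 3.57 FPKM (SD, n = 3), a ratio of 1.58. The log2 fold was 0.62, with a 95% interval of 0.03 to 1.22 (SE 0.25, limma, unadjusted p = 0.0421, adjusted p = 0.972). Pcna was thus the 1 gene of the 5 at an unadjusted p under 0.05, a level that 4.91% of all genes tested reached in either direction and 3.5% with MCA higher, and it ranked 589 by p among the 13591. Leaving out any single library other than MCA replicate 2 raised its unadjusted p above 0.05, to between 0.0648 and 0.129. Without MCA replicate 2 its log2 fold was 0.80 (unadjusted p = 0.0123, adjusted p = 0.488). On the recovered fragments limma-voom also put 0 of the 5 genes past the adjusted threshold, with Pcna at an unadjusted p of 0.0351. RefSeq lists 3 pseudogenes named after Pcna and 1 each after Mki67 and Cdk1, and how fragments shared with such copies had been assigned is not given in the sources used here.

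Ccnd1 (ENSRNOG00000020918), the cyclin of G1, had the highest level. It stood at 65.5, 40.6 and 79.8 FPKM in MCA replicates 1, 2 and 3, and at 47.2, 36.5 and 46.0 FPKM in suture replicates 1, 2 and 3. MCA replicates 1 and 3 exceeded every suture library, while MCA replicate 2 fell among them. MCA libraries averaged 62.0 ± 19.8 FPKM (SD, n = 3) and suture libraries 43.2 ± 5.87 FPKM (SD, n = 3), a ratio of 1.43. Its log2 fold was 0.47 (SE 0.31, limma, unadjusted p = 0.174, adjusted p = 0.9997). It was 0.74 without MCA replicate 2 (unadjusted p = 0.0235, adjusted p = 0.574) and 0.26 without MCA replicate 3.

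**Figure D2:**
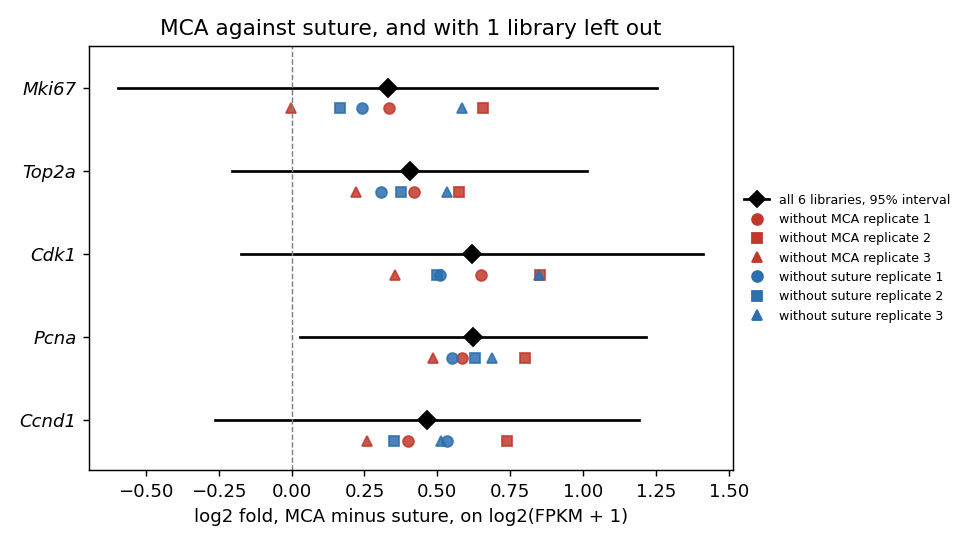
Log2 fold of MCA over suture on the log2(FPKM + 1) scale for each gene, with all 6 libraries (diamonds, with the 95% interval of the limma fit) and with each library left out in turn (smaller points below). Every gene moved to its lowest value without MCA replicate 3 and to its highest without MCA replicate 2, and the interval of Pcna alone lies above 0.

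None of the 95% intervals excluded a level 2-fold higher with MCA, and all excluded one 2-fold lower. Their upper ends, as folds of FPKM + 1, ran from 2.02 for Top2a to 2.66 for Cdk1, and their lower ends from 0.662 for Mki67 to 1.02 for Pcna. The median log2 fold of the 5 genes was 0.47, and that of all genes tested was -0.02. A log2 fold at least as large as that of Mki67, the lowest of the 5, occurred in 13.9% of all genes tested. These counts describe 5 genes that vary together and are not 5 separate observations.

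**Figure D3:**
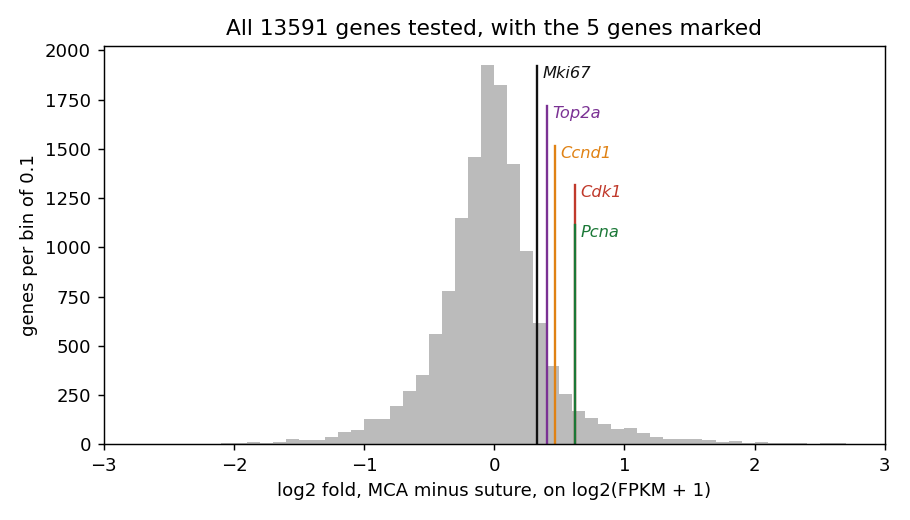
Distribution of the log2 fold (MCA minus suture, log2(FPKM + 1) scale) over the 13591 genes tested, in bins of 0.1, with the 5 genes marked by vertical lines whose height has no meaning; 12 genes beyond 3 log2 units are not drawn. The 5 lie on the upper side of the distribution, between 0.33 and 0.62, inside its range.

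Levels differed more between genes than between libraries. Averaged over the 6 libraries, the order from the highest was Ccnd1 at 52.6 FPKM, Pcna at 46.9, Cdk1 at 21.5, Top2a at 10.8 and Mki67 at 5.98. In FPKM, which is per length, Ccnd1 and Pcna were neighbours that did not differ beyond their spread: Pcna was the higher in MCA replicate 2 and suture replicate 2 and the lower elsewhere. The other neighbours kept their order in each library. By mean FPKM, Ccnd1 exceeded or equalled 93.2% of all listed genes, Pcna 92.3%, Cdk1 82.9%, Top2a 70.7% and Mki67 60.02%. The lengths recovered with the fragments were 9880 bases for Mki67, 5589 for Top2a, 3876 for Ccnd1, 1411 for Cdk1 and 1160 for Pcna. The length of Mki67 gave it between 541 and 1645 fragments a library despite its low FPKM, and the fewest of any gene, 298, were those of Cdk1 in suture replicate 2.

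Counting error was smaller than the spread between libraries of a group, which holds differences between animals along with those of sampling and preparation. If fragments are counted independently, the largest counting error of any value was 5.79% (Cdk1) and the smallest 1.44% (Ccnd1), while the coefficient of variation within MCA ran from 21.7% for Pcna to 51.2% for Mki67, and from 9.83% to 36.2% without replicate 2. Within suture it ran from 9.81% for Pcna to 39.1% for Mki67. These figures cover counting only, since amplified copies of 1 fragment are not independent molecules.

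With all 3 libraries, the range and the SD within MCA were wider than within suture for each of the 5 genes. The range within MCA was no longer the wider without MCA replicate 2 for all 5, or without MCA replicate 3 for Mki67, Top2a and Cdk1. Leaving out an end library always narrows a range, and fewer libraries were then left in MCA than in suture. MCA replicate 3 exceeded MCA replicate 2 by 2.90-fold for Mki67, 2.05-fold for Cdk1, 1.96-fold for Ccnd1, 1.71-fold for Top2a and 1.56-fold for Pcna. In the suture group the highest library exceeded the lowest by 1.99-fold for Mki67, 1.67-fold for Cdk1, 1.42-fold for Top2a, 1.29-fold for Ccnd1 and 1.22-fold for Pcna. The median SD of log2(FPKM + 1) over the 5 genes was 0.49 within MCA and 0.23 within suture, and over all genes tested it was 0.36 and 0.33. A larger SD within MCA than within suture was seen in 58.8% of all genes tested. The ratio of MCA replicate 3 to replicate 2 was larger than the ratio of the group means for Mki67, Top2a, Cdk1 and Ccnd1, and for Pcna it came close to the group ratio of 1.58. MCA replicates 1 and 3 alone differed by 1.69-fold for Mki67, 1.53-fold for Cdk1, 1.34-fold for Top2a, 1.22-fold for Ccnd1 and 1.15-fold for Pcna, each less than the suture range of that gene, although that range spans 3 libraries. MCA replicates 1 and 2 alone differed by less than that range for Mki67 (1.72-fold), Cdk1 (1.34-fold) and Top2a (1.27-fold). They differed by more for Ccnd1 (1.61-fold) and Pcna (1.36-fold). The median SD of the 5 within MCA fell to 0.28 without replicate 2 and to 0.30 without replicate 3, and rose to 0.68 without replicate 1. Without replicate 2 the SD was still larger within MCA than within suture for 4 of the 5 genes, and for 31.2% of all genes tested. Without replicate 3 this held for 3 of the 5 and for 55.8% of all genes tested. Without replicate 2, the coefficient of variation was lower within MCA for Mki67 (36.2% against 39.1%) and Cdk1 (29.6% against 31.1%). It was slightly higher for Top2a (20.8% against 18.4%), Ccnd1 (13.9% against 13.6%) and Pcna (9.83% against 9.81%).

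The 5 genes followed similar orders of libraries, most closely within the MCA group. The order within MCA was the same for all 5, from replicate 3 through 1 to 2. Relative to each gene's own mean over the 6 libraries, the average of the 5 on the log2(FPKM + 1) scale was 0.69 in MCA replicate 3, 0.27 in replicate 1 and -0.23 in replicate 2. It was 0.05, -0.37 and -0.41 in suture replicates 3, 1 and 2. Suture replicate 3 was the highest of its group for Mki67, Top2a, Cdk1 and Pcna, and suture replicate 1 for Ccnd1. MCA replicate 2 therefore fell below suture replicate 3 on this average and above the other suture libraries. Together the 5 genes held between 0.0289% and 0.0639% of the fragments of a library.

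**Figure D4:**
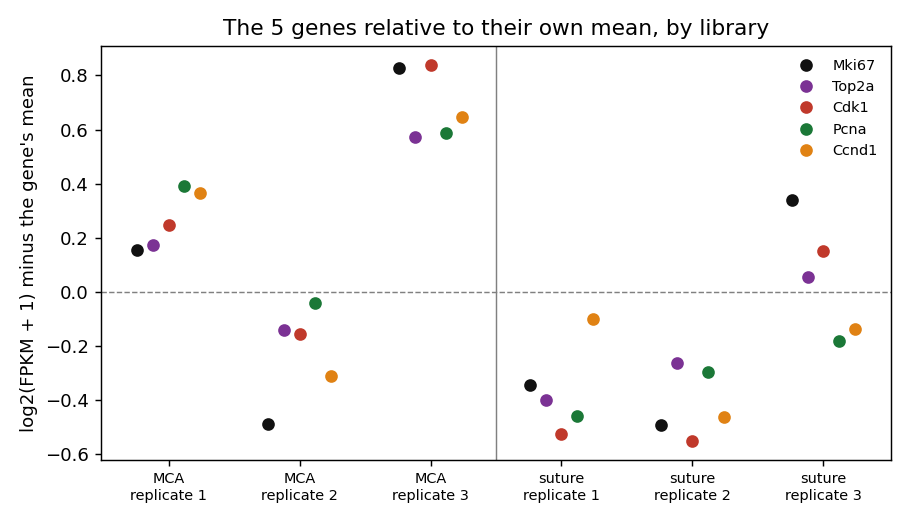
Log2(FPKM + 1) of each gene minus its mean over the 6 libraries (vertical axis), by library, with 1 coloured point per gene. All 5 points lie at 0.57 or above in MCA replicate 3 and all lie below 0 in MCA replicate 2 and in suture replicates 1 and 2; the points are most scattered in suture replicate 3, from -0.18 for Pcna to 0.34 for Mki67.

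How closely a pair of genes moved was measured as the SD over the 6 libraries of the difference of their log2(FPKM + 1), which is 0 for a constant difference and also grows with the size of each gene's own movements. Over the 10 pairs its median was 0.23. The closest pair was Top2a and Pcna at 0.15, followed by Cdk1 with Top2a at 0.19 and Cdk1 with Mki67 at 0.20. Mki67 and Pcna were the farthest apart at 0.36. For comparison, the median of this SD over all other genes was 0.60 from Mki67, 0.61 from Cdk1 and 0.49 from Top2a.

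For each gene, all 13590 other genes were also ranked by this closeness, and the ranks of the other 4 ran from 37 to 2050. Cdk1 ranked 55 from Mki67, and Mki67 ranked 44 from Cdk1. Top2a ranked 41 from Cdk1 and 37 from Pcna, but from Mki67 it ranked 237. The placings were not mutual: from Top2a, Pcna ranked 148 and Cdk1 376. Ccnd1, the only G1 gene here, had Pcna as the nearest of the 5, at rank 288. Mki67 ranked 2050 from Pcna, the most distant of these placings. The single gene nearest to Mki67 was ENSRNOG00000005659, with an SD of 0.09 and a mean of 5.37 FPKM, and the gene nearest to Ccnd1 was ENSRNOG00000010852, with an SD of 0.07 and a mean of 4.07 FPKM. Neither could be named.

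Ratios between the genes varied between libraries within each group. Pcna exceeded Mki67 by 11.9-fold in FPKM in MCA replicate 2 and by 5.43-fold in suture replicate 3, with means of 9.26 ± 2.76 (SD, n = 3) in MCA and 7.74 ± 2.27 (SD, n = 3) in suture. Ccnd1 exceeded Mki67 by 11.3-fold in suture replicate 1 and by 6.27-fold in suture replicate 3, so that both extremes lay in 1 group. The ratio of Cdk1 to Mki67 was narrower, from 3.08 in suture replicate 3 to 4.91 in MCA replicate 2, and that of Pcna to Top2a narrower still, from 3.63 in suture replicate 3 to 4.97 in MCA replicate 1. Suture replicate 3 thus had the most Mki67 for its level of each other gene. Without MCA replicate 2 the highest ratio to Mki67 was 9.97 for Pcna, in suture replicate 2, and 3.83 for Cdk1, in MCA replicate 1. For all 10 pairs the FPKM ratios of the groups overlapped, with or without MCA replicate 2. For Pcna to Top2a the overlap was slight, with 4.25 in MCA replicate 3 against 4.27 in suture replicate 2. The means of that ratio were 4.62 ± 0.36 (SD, n = 3) in MCA and 4.04 ± 0.36 (SD, n = 3) in suture.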

How the data were processed

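The authors deposited 1 table of FPKM per gene for the 6 libraries. Per the labels' protocols these are normalized values from NEBNext Ultra libraries of TRIzol RNA sequenced on a DNBSEQ-T7 instrument. The submitters' processing notes name limma with no role, and the aligner, the counter, the annotation with its build and the strand setting were details not given in the sources used here.

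The 5 genes and the tests were chosen with earlier results of these data known. Library totals and whole fragments were recovered from the ratios between libraries of genes under 0.5 FPKM, a step tested on simulated data. Genes averaging 1 FPKM or more were tested on log2(FPKM + 1) with limma 3.58.1 in R 4.3.3 (no covariates, mean-variance trend, two-sided, Benjamini-Hochberg over 13591 genes), also tested on simulated data. That simulation required only more calls at larger shifts than at smaller ones and a bounded mean error. It was not used to judge power at differences of the size seen here. Folds on log2(FPKM + 1) understate changes of low genes. With only 3 libraries a group, p-values rest on a spread shared across genes. All 5 genes are named whatever their values, along with the gene nearest to Mki67 and to Ccnd1. Other lists of cell cycle and cell type genes that had been drawn up by symbol are not analysed here, since 0 of 21417 identifiers matched the reference. Promoters are RefSeq's (GRCr8). Other software was matplotlib 3.10.9, pandas 2.3.3 and numpy 2.4.6 under Python 3.11.15.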

Additional observations from a re-analysis of the deposited data

How the results depend on the processing

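Across 16 alternative settings none of the 5 genes passed the adjusted threshold in limma or limma-voom, and the lowest adjusted p of any was 0.282 (Pcna, array weights). The count of all genes past it was 0 in 15 settings and 35 with array weights, lowest (0.290) in MCA replicate 2 and highest (4.31) in MCA replicate 1. Top2a, Cdk1, Pcna and Ccnd1 kept a log2 fold above 0 in every setting run, and Mki67 in all but the one without MCA replicate 3. Leaving out 1 library gave -0.0018 to 0.66 for Mki67, 0.22 to 0.58 for Top2a, 0.35 to 0.85 for Cdk1, 0.49 to 0.80 for Pcna and 0.26 to 0.74 for Ccnd1. The number of the 5 genes at an unadjusted p under 0.05, 1 in the test of all libraries, was 0 to 3 when 1 library was left out, reaching 3 without MCA replicate 2, and 2 with array weights (Pcna and Ccnd1). The share of all genes at such a p rose as well, from 4.91% to 7.84% without MCA replicate 2, 10.01% with array weights and 8.40% with the block. Pseudocounts of 0.1 and 0.5, no filter, a minimum mean of 5 FPKM, both scalings by quantiles, leaving out the 10 most abundant genes and limma-voom each left the number at 1. A replicate block in the limma fit made the count of the 5 genes 2, with Cdk1 at an adjusted p of 0.465 and Pcna at an adjusted p of 0.520. The labels do not say that the numbers pair animals, so libraries of the same number were not taken as pairs. The departures of libraries 1, 2 and 3 from their group mean correlated across groups at 0.42, 0.53 and -0.0016. Both 0.42 and 0.53 lay above every correlation between different numbers, which ran from -0.47 to 0.28. Departures within a group cancel out, which ties the correlations to each other, so no conclusion on pairing was drawn from them. MCA replicate 3 deviated most like suture replicate 1 (0.28). Median closeness over the 10 pairs of genes stayed between 0.20 and 0.25, with scalings not run. Chosen after seeing the data were the spread, overlap and ratios with an MCA library left out. How far depth limits these genes was not tested.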
